A study of Homo sapiens with 8 samples.

Results

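The genes described are 9 selenoproteins, GPX1, GPX4, SELENOH, SELENOK, SELENOM, SELENOS, SELENOT, SELENOW and TXNRD1, together with TRIT1, the enzyme that isopentenylates a group of tRNAs. They were taken by gene symbol from a fixed list of names and are 10 of the 58219 genes in each expression file. All 10 passed the filter on low counts, which asked for 0.353 CPM (counts scaled to a common library size) in at least 2 libraries. GPX1 reached that level in the 4 H929 libraries and in none of KMS11, so it passed through H929 alone, and SELENOM reached it in 4 H929 and 2 KMS11 libraries. RNA was sequenced from H929 (NCI-H929) and KMS11 cells, established multiple myeloma (MM) lines that both carry the t(4;14) translocation. Each line was grown in culture medium with serum and exposed for 24 h to ethanol, the solvent control, or to 2 µM fluvastatin, a statin. Each of the 4 groups had 2 biological replicates, which gave 8 libraries. Each line is a single model of t(4;14)-positive MM, and no line without the translocation was among these libraries.

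Selenoproteins contain selenocysteine, an amino acid that is inserted at an in-frame UGA codon, which elsewhere ends translation. Insertion needs a dedicated selenocysteine tRNA, a hairpin in the 3′ untranslated region of the mRNA and proteins that bind that hairpin. TRIT1 transfers an isopentenyl group from dimethylallyl pyrophosphate (DMAPP), a product of the mevalonate pathway, to an adenosine beside the anticodon of the selenocysteine tRNA and some other tRNAs. Statins inhibit the mevalonate pathway, and the selenoproteins are therefore often listed among products that depend on the pathway. The messages of some selenoproteins are known to be removed by nonsense-mediated decay when the UGA is read as a stop far enough ahead of the last exon junction. A place just before the junction is not enough.

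The selenocysteine codon of each member is given here within its coding sequence, since the codon is what the 9 proteins share and its place relative to the last exon junction differs between them. The sequences were read from the canonical transcripts of GENCODE release 44 on GRCh38, 5′ to 3′, with the selenocysteine codon in capitals and up to 24 bases on each side, ending at the stop codon where it comes sooner.
GPX1: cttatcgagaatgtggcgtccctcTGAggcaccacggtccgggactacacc
GPX4: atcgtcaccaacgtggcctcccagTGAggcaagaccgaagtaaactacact
SELENOH: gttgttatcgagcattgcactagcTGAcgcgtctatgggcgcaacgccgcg
SELENOK: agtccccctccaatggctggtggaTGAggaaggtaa
SELENOM: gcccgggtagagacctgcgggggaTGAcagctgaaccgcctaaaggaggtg
SELENOS: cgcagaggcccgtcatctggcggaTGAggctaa
SELENOT: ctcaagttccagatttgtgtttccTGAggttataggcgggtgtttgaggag
SELENOW: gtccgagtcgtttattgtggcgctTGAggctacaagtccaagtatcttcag
TXNRD1: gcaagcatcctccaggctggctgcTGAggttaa

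Each of the 9 members carried 1 such codon, and all 36 annotated selenocysteine codons in the 25 human selenoproteins were TGA. The base after the codon was G in 7 members and C in SELENOH and SELENOM, against G after 15 and C after 12 of the 36 codons. The codon lay before the last exon junction in 7 members. The distance was 470 bases in SELENOT, 342 in GPX4, 267 in SELENOH, 243 in SELENOW, 135 in SELENOM, 105 in GPX1 and 5 in SELENOK. In TXNRD1 and SELENOS the codon lay in the last exon, where 1 residue follows it. The codon of GPX1 is in exon 1 of 2 (chr3:49358132-49358134, minus strand), that of GPX4 in exon 3 of 7 (chr19:1105403-1105405, plus strand) and that of TXNRD1 in exon 17 of 17 (chr12:104348413-104348415, plus strand).

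**Figure D1:**
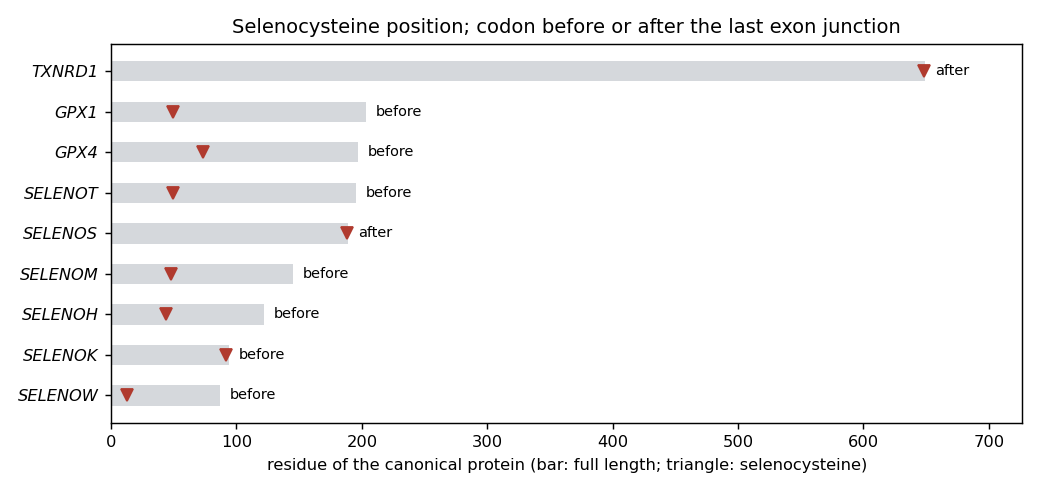
Length of each canonical protein in residues (grey bars, horizontal axis) with the position of its selenocysteine (red triangles) for the 9 selenoprotein members. The residue sits at positions 13 to 73 in GPX1, GPX4, SELENOH, SELENOM, SELENOT and SELENOW and within 2 residues of the end in SELENOK, SELENOS and TXNRD1, and the words at the right say whether the codon lies before or after the last exon junction.

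Library totals ranged from 26702515 to 41910446 expected counts, of which 85.2% to 91.4% fell on protein-coding genes. KMS11 fluvastatin replicate 1 stood apart from the other KMS11 libraries. Across genes, its deviation in log2 CPM had a correlation of 0.058 with GC content, against -0.247 to -0.199 in the other 3, and the 4 H929 libraries had 0.021 to 0.27. Without it, the KMS11 response moved from 0.64 to 0.34 for GPX4, from -0.29 to -0.18 for TRIT1, from -0.29 to -0.20 for TXNRD1, from -0.18 to -0.04 for SELENOK and from -0.20 to -0.09 for SELENOT on the log2 scale. The value of SELENOM moved from -0.26 to -0.75, that of SELENOS from -0.04 to 0.03, that of SELENOH from -0.12 to -0.07 and that of SELENOW from -0.18 to -0.23. None of these passed the threshold (adjusted p = 0.25 to 0.96). Of 8 plasma cell markers, all were above 1 TPM in H929 (summed TPM 1690 to 1895) and 7 in KMS11 (717.2 to 1027), where CD38 was at 0.01 to 0.04 TPM. Of 8 markers of other cell types, 6 were under 1 TPM in every group (summed TPM 8.32 to 12.08 in H929 and 32.4 to 38.09 in KMS11), and EPCAM, an epithelial marker, was at 30.2 to 35.91 TPM in KMS11 and at most 0.04 in H929. The part of these differences in the results was not tested. In bulk RNA, fewer expressing cells and less RNA per cell cannot be told apart.

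Levels between genes were compared in TPM, which is scaled by gene length. In H929 cells in ethanol, SELENOT had 81.7 TPM ± 0.955 (SD, n = 2) and GPX4 79.2 ± 3.07, and their ranges overlapped. SELENOS (52.9 TPM), TXNRD1 (49.6), SELENOK (40.8) and SELENOH (32.8) followed, each apart from the next. GPX1 (21.4 TPM ± 1.49) and SELENOW (21.0) overlapped, and SELENOM (11.3) and TRIT1 (7.79) were lowest.

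In KMS11 cells in ethanol the order was different. SELENOT (212.3 TPM ± 14.3) and TXNRD1 (183.3 ± 1.68) led, SELENOS (76.3) and SELENOK (75.2) overlapped, and GPX4 came next at 58.2 ± 6.50. SELENOH (44.3 TPM), SELENOW (33.2) and TRIT1 (17.1) followed. SELENOM had 0.59 TPM and GPX1 0.105, and both of these were above TRIT1 in H929.

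The order within a line moved little with fluvastatin. In H929 it left SELENOT, GPX4 and SELENOS in front (76.6, 64.7 and 46.6 TPM), while GPX1 at 8.47 TPM ± 0.594 dropped below SELENOW and overlapped SELENOM (7.69 ± 2.05). In KMS11, GPX4 came after TXNRD1 at 77.9 TPM ± 11.1 and overlapped SELENOS (67.4 ± 10.4). Summed over all 25 selenoproteins, H929 had 468.2 and 466.5 TPM in ethanol and 392.5 and 394.6 in fluvastatin. KMS11 had 873.5 and 882.1 TPM in ethanol and 680.8 and 812 in fluvastatin. In both lines the fluvastatin libraries were below the ethanol libraries, and the 9 members made up 77.5% to 83.9% of the sum. On the log2(TPM + 1) scale the median tested gene moved with fluvastatin by 0 in H929 and -0.083 in KMS11. In ethanol it was higher by 0.315 in KMS11 than in H929. The sums were not corrected for these shifts.

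**Figure D2:**
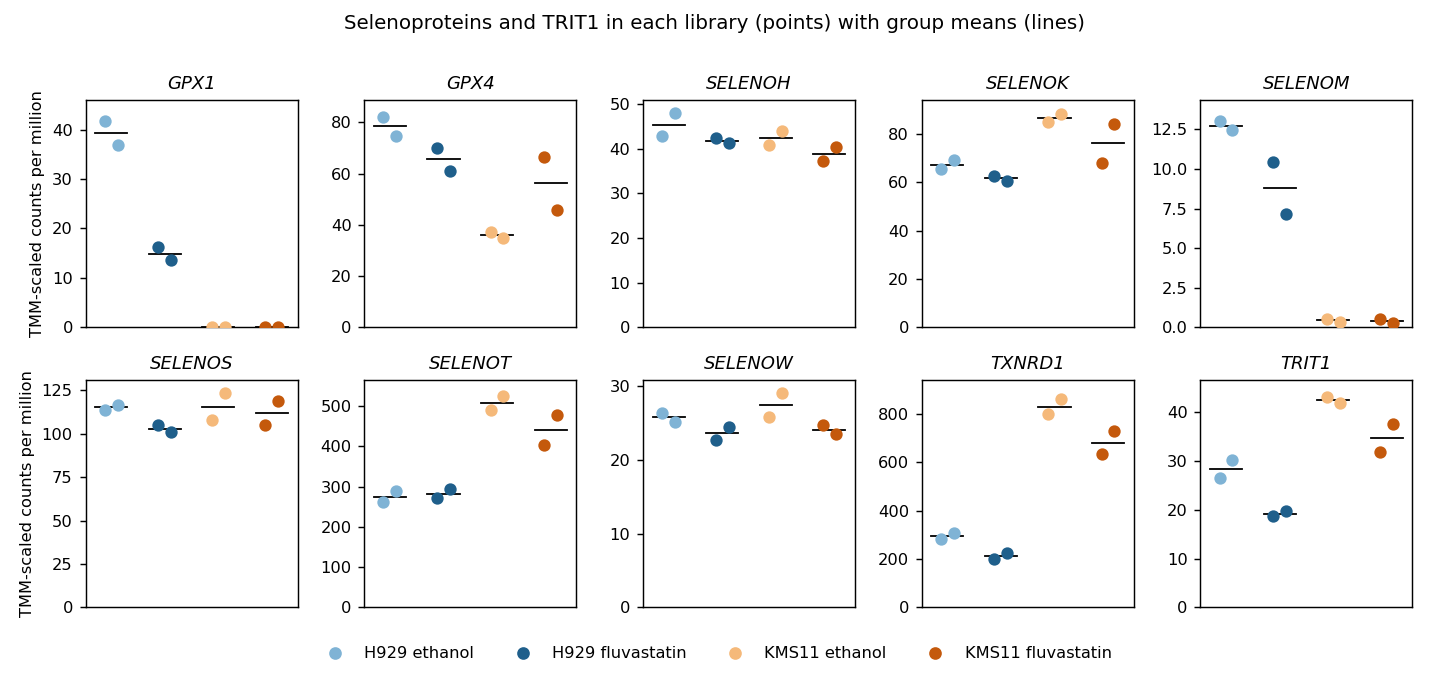
TMM-scaled CPM (vertical axis, from 0, scaled separately for each gene) in the 8 libraries, with points for libraries and horizontal lines for the means of the 4 groups of line and treatment. GPX1 and SELENOM are near 0 in KMS11, TXNRD1, SELENOT and TRIT1 are higher in KMS11 than in H929, and in H929 the fluvastatin libraries are below the ethanol libraries in 9 of the 10 genes.

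Differences between groups were tested on counts, with values given as TMM-scaled CPM, with the quasi-likelihood F test of edgeR. The p values were adjusted after Benjamini and Hochberg across 13129 protein-coding genes, and a call is an adjusted p under 0.05. Across both lines, 3 of the 10 members were lower in fluvastatin, GPX1, TXNRD1 and TRIT1, and none was higher. The same test called 3.93% of all tested genes lower and 6.5% higher. In H929 alone the same 3 members were lower and none was higher, where 19.3% of all genes were called lower and 22.7% higher. In KMS11 alone no member passed the threshold, where 0.533% of genes were called lower and 2.58% higher. At an unadjusted p under 0.05 the KMS11 libraries gave 1 member higher (GPX4) and 2 lower (TXNRD1 and TRIT1), while DESeq2 called 1 (GPX4) and limma on TPM 0. The members had a median log2 fold change of -0.15 across both lines, -0.21 in H929 and -0.19 in KMS11, beside 0.03, 0.02 and 0.00 over all tested genes.

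The fluvastatin libraries did not overlap the ethanol libraries, and lay below them, for 9 of 10 members in H929 and for 7 of 10 in KMS11. Among all tested genes the shares were 33.6% and 26.5%. In both lines at once this held for 6 of 10 members, against 12.4% of all genes. GPX1 is among them with at most 3 counts per KMS11 library, and without it the counts were 6 of 9 in KMS11 and 5 of 9 in both lines. With GC and length trends removed, the H929 values of GPX4, SELENOH and SELENOW turned to 0.12, 0.08 and 0.17, none of them called. The exception in H929 was SELENOT, and those in KMS11 were GPX4, which lay above, and SELENOM and SELENOS, which overlapped.

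TRIT1 (ENSG00000043514.15, chr1:39838110-39883511, minus strand, 11 exons in the canonical transcript), the isopentenyltransferase itself, had 26.6 and 30.3 CPM in the H929 ethanol libraries and 18.7 and 19.8 in fluvastatin. Its KMS11 values were 43.1 and 41.9 CPM in ethanol and 31.8 and 37.6 in fluvastatin. In each line both fluvastatin libraries were below both ethanol libraries. TRIT1 fell in H929 by 0.56 on the log2 scale (SE 0.13, adjusted p = 0.0059) and across both lines by 0.43 (SE 0.11, adjusted p = 0.041). In KMS11 the log2 fold change was -0.29 (SE 0.12, adjusted p = 0.21). The difference between the responses, KMS11 minus H929, was 0.27 (95% interval -0.07 to 0.62, adjusted p = 0.29). The H929 call was lost without H929 ethanol replicate 2 (adjusted p = 0.051), and the call across both lines was lost without any 1 library other than KMS11 fluvastatin replicate 2 (adjusted p = 0.054 to 0.15).

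GPX1 (ENSG00000233276.3, chr3:49357174-49358605, minus strand, 2 exons) is the cytosolic glutathione peroxidase that reduces hydrogen peroxide, and its message is known to be among the most sensitive to selenium supply. It had 41.7 and 36.9 CPM in the H929 ethanol libraries, from 1226 and 922 counts. In fluvastatin it had 16.2 and 13.6 CPM, from 369 and 338 counts. The H929 groups were far apart, with a log2 fold change of -1.40 (SE 0.15, adjusted p = 7e-05), which is 0.379 of the ethanol level and the lowest ratio among the members. In KMS11 it had 3 and 3 counts in ethanol and 1 and 2 in fluvastatin, so that no response could be measured there. The value across both lines (-1.35, SE 0.17, adjusted p = 0.0037) therefore rests on H929. With the trends of log2 CPM with GC content removed from each library, the H929 value was -1.21 (adjusted p = 1.4e-06). Processed pseudogenes of GPX1 held at most 0.3% of its counts in any library.

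GPX4 (ENSG00000167468.16, chr19:1103982-1106791, plus strand, 7 exons) is the peroxidase that reduces lipid hydroperoxides in membranes and protects cells from ferroptosis. It had 82.1 and 74.9 CPM in the H929 ethanol libraries and 70.1 and 61.0 in fluvastatin. KMS11 cells had 37.3 and 34.7 CPM in ethanol and 66.6 and 45.9 in fluvastatin. It was the only member whose fluvastatin libraries were below the ethanol libraries in one line and above them in the other. Neither response passed the threshold (H929 -0.26, SE 0.16, adjusted p = 0.22; KMS11 0.64, SE 0.16, adjusted p = 0.065).

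The difference between these responses was called, at 0.90 (SE 0.23, adjusted p = 0.019), and GPX4 was the only member with such a call, where 11.7% of all genes differed in that direction and 11.5% in the other. Without KMS11 fluvastatin replicate 1 the difference was 0.63 (adjusted p = 0.017) and the KMS11 value 0.34 (adjusted p = 0.25). The call was lost without H929 ethanol replicate 1, H929 fluvastatin replicate 2, KMS11 ethanol replicate 1 or KMS11 ethanol replicate 2 (adjusted p = 0.054 to 0.069). The GPX4 transcript has 62.3% GC. With the GC trend of each library removed, the difference between the lines was 0.26 (adjusted p = 0.083), and with GC and length trends removed it was 0.06 (adjusted p = 0.72).

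**Figure D3:**
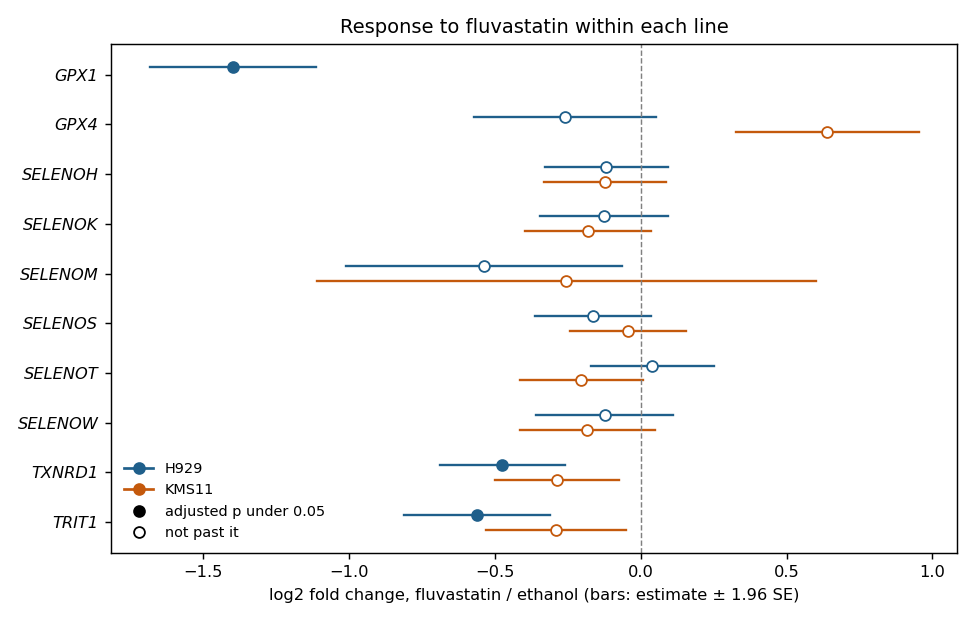
Log2 fold change of fluvastatin against ethanol (horizontal axis) for each member within H929 (blue) and KMS11 (orange), with bars for the 95% interval and filled points for an adjusted p under 0.05. GPX1, TXNRD1 and TRIT1 in H929 are the filled points, GPX4 lies on opposite sides of 0 in the 2 lines, and GPX1 is not drawn for KMS11 because it had at most 3 counts per library.

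TXNRD1 (ENSG00000198431.15, chr12:104215779-104350307, plus strand, 17 exons in the canonical transcript) is the cytosolic thioredoxin reductase, which keeps thioredoxin reduced with electrons from NADPH. It had 280.8 and 309.2 CPM in the H929 ethanol libraries and 198 and 226.7 in fluvastatin. In KMS11 the values were 796.8 and 859.5 CPM in ethanol and 631.1 and 726 in fluvastatin. In each line the groups did not overlap. TXNRD1 fell in H929 by 0.47 on the log2 scale (SE 0.11, adjusted p = 0.0064) and across both lines by 0.38 (SE 0.09, adjusted p = 0.035), and in KMS11 the value was -0.29 (SE 0.11, adjusted p = 0.17). The H929 call was lost without H929 ethanol replicate 2 or H929 fluvastatin replicate 1 (adjusted p = 0.05 and 0.053). The call across both lines was lost without any 1 H929 library or KMS11 ethanol replicate 2 (adjusted p = 0.072 to 0.13). A ribosomal protein pseudogene on the same strand within TXNRD1, RPL18AP3, held 392.34 to 1465.81 counts of its own, so the division of reads between them is uncertain.

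**Figure D4:**
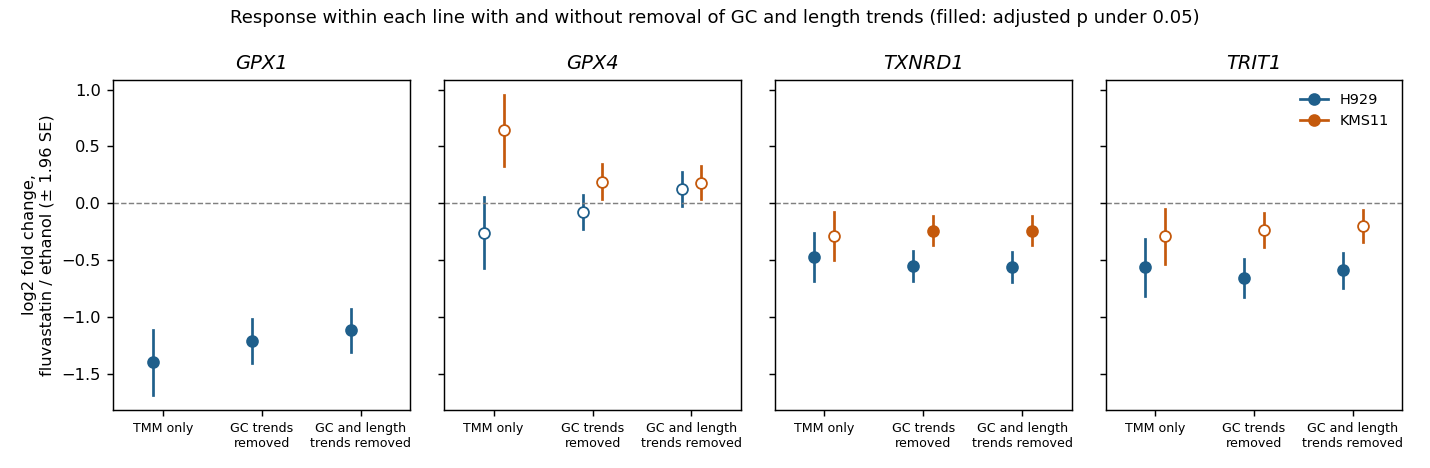
Log2 fold change of fluvastatin against ethanol (vertical axis, bars for the 95% interval) within H929 (blue) and KMS11 (orange) for GPX1, GPX4, TXNRD1 and TRIT1, with TMM scaling alone, with the GC trend of each library removed, and with GC and length trends removed (filled points, adjusted p under 0.05). GPX4 in KMS11 moves from 0.64 to 0.19 and 0.18, whereas TXNRD1 in H929 stays between -0.56 and -0.47 and TRIT1 in H929 between -0.66 and -0.56.

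With the GC trends removed, the responses of TRIT1 and TXNRD1 did differ between the lines, by 0.42 (adjusted p = 0.014) and 0.31 (adjusted p = 0.026), both with the stronger fall in H929. TXNRD1 was then also lower in KMS11 (-0.24, adjusted p = 0.037). These calls were absent under TMM scaling alone.

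The 4 members of the endoplasmic reticulum (ER) gave no call under fluvastatin. SELENOS and SELENOK are membrane proteins that take part in ER-associated degradation, SELENOT is a membrane-bound protein with a thioredoxin-like fold, and SELENOM is a protein of the ER lumen with such a fold. SELENOK (chr3:53884417-53891885, minus strand) had 65.5 and 69.1 CPM in the H929 ethanol libraries and 62.8 and 60.5 in fluvastatin. In KMS11 it had 84.8 and 88.2 CPM in ethanol and 68.1 and 84.3 in fluvastatin. Its groups were apart in both lines, by small margins (-0.13, adjusted p = 0.39, in H929 and -0.18, adjusted p = 0.35, in KMS11). The KMS11 value was -0.04 (adjusted p = 0.93) without fluvastatin replicate 1 and -0.39 (adjusted p = 0.038) without fluvastatin replicate 2.

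SELENOS (chr15:101270817-101277500, minus strand) was at 113.9 and 116.9 CPM in the H929 ethanol libraries and at 105.2 and 100.8 in fluvastatin. In KMS11 it was at 108 and 123.5 CPM in ethanol and 105.4 and 119 in fluvastatin, with overlapping groups. The 95% interval of its log2 fold change was -0.36 to 0.04 in H929 and -0.24 to 0.15 in KMS11.

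SELENOT (chr3:150602875-150630436, plus strand), the member with the highest TPM, had 260.8 and 289.1 CPM in the H929 ethanol libraries and 271.5 and 293.5 in fluvastatin. In KMS11 it had 490.2 and 523.5 CPM in ethanol and 402.2 and 477.8 in fluvastatin. The groups overlapped in H929 (0.04, SE 0.11, adjusted p = 0.80) and were apart in KMS11 (-0.20, SE 0.11, adjusted p = 0.29). SERP1 overlaps SELENOT on the opposite strand with 9255 to 20115 counts. The libraries were stranded, but the strand setting of the counting was not given in the sources used here, so that reads from the 2 genes might not have been told apart.

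SELENOM (chr22:31104772-31120069, minus strand) had 13.0 and 12.4 CPM in the H929 ethanol libraries and 10.5 and 7.13 in fluvastatin, from 177 to 383 counts. The groups were apart, and the log2 fold change was -0.54 (SE 0.24, adjusted p = 0.10). In KMS11 it had 10 to 20 counts per library and overlapping groups, and the 95% interval of the log2 fold change was -1.11 to 0.60, which leaves its response there unresolved at this depth.

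SELENOH, a nucleolar protein that binds DNA, and SELENOW, a small cytosolic protein with a thioredoxin-like fold, gave no call in any comparison under TMM scaling. SELENOH (chr11:57741491-57743554, plus strand) was between 37.2 and 47.9 CPM in all 8 libraries. Its log2 fold changes were -0.12 in each line (SE 0.11, adjusted p = 0.41 and 0.51). SELENOW (chr19:47778677-47784686, plus strand) was between 22.7 and 29.0 CPM, with log2 fold changes of -0.12 in H929 (adjusted p = 0.44) and -0.18 in KMS11 (adjusted p = 0.38). For both genes the fluvastatin libraries were below the ethanol libraries in each line, by less than the test could call.

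The lines differed more from each other than either did between treatments. In ethanol, 4 members were higher in KMS11 (TXNRD1, SELENOT, TRIT1 and SELENOK), 3 were lower (SELENOM, GPX4 and GPX1), and SELENOH, SELENOS and SELENOW were not called. The same test called 35.6% of all genes higher and 36.4% lower. GPX1 had 6 counts over the 2 KMS11 ethanol libraries and 2148 over the 2 of H929, a ratio of 493 after scaling for depth (95% interval 226.1 to 1345, counting error only). Since GPX1 passed the filter through H929 alone, its place among the members called lower is a description and no test. SELENOM had 33 and 694 counts, a ratio of 28.96 (95% interval 20.43 to 42.41; adjusted p = 5.9e-07). GPX4 was 0.459 of the H929 level (log2 fold change -1.12, SE 0.16, adjusted p = 0.00013), and with GC and length trends removed the value was -0.12 (adjusted p = 0.16).

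TXNRD1 was 2.81-fold higher in KMS11 (log2 fold change 1.49, SE 0.11, adjusted p = 1.4e-06), and SELENOT 1.84-fold (0.88, SE 0.11, adjusted p = 4.6e-05). TRIT1 was higher by 0.58 on the log2 scale (SE 0.12, adjusted p = 0.0019). SELENOK was 1.29-fold higher (0.36, SE 0.11, adjusted p = 0.014), a call that was lost with GC trends removed (0.05, adjusted p = 0.57) and without H929 ethanol replicate 1 or either KMS11 ethanol library (adjusted p = 0.054 to 0.087). On the TPM scale the median gene was higher in KMS11 by 0.32 (log2), and limma on log2(TPM + 1) called 6644 genes higher and 2477 lower, against 4680 and 4774 on counts. All 7 members outside GPX1, GPX4 and SELENOM were called higher on that scale. SELENOH changed sign between the scales (-0.10 on counts and 0.43 on TPM), while SELENOW (0.09 and 0.63) did not, and SELENOW was also called higher with GC trends removed (0.46, adjusted p = 0.0016).

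**Figure D5:**
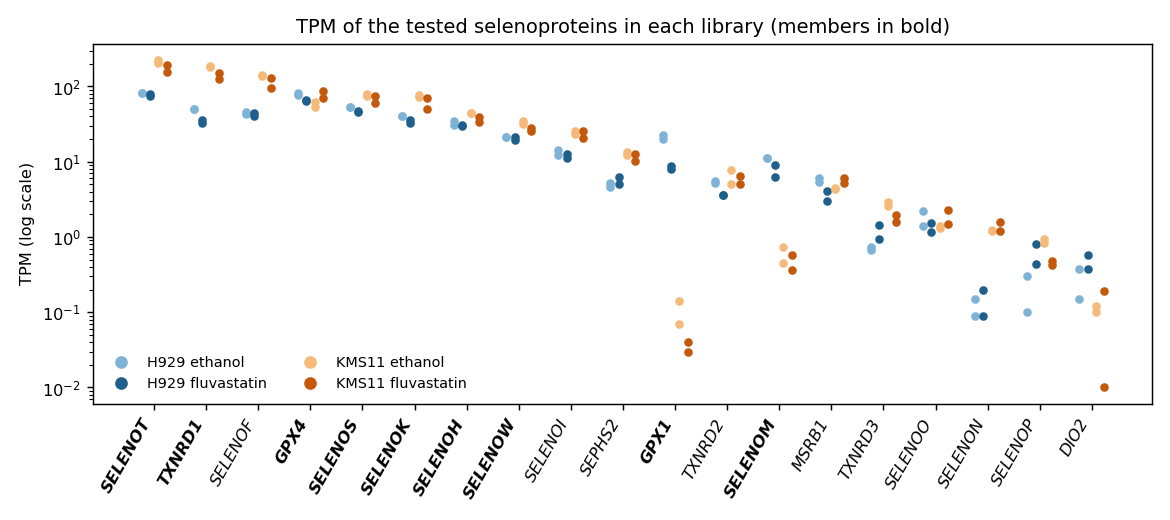
TPM (vertical axis, log scale) of the 19 selenoproteins that passed the filter, in each of the 8 libraries and ordered by mean TPM, with the members in bold. SELENOT leads with a mean of 136.5 TPM, SELENOF is the highest selenoprotein outside the members at 84.7 TPM, and GPX1 and SELENOM show the widest gap between H929 and KMS11 among the members.

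Of the 16 other human selenoproteins, 10 were tested. In H929, MSRB1, a methionine sulfoxide reductase, and TXNRD2, the mitochondrial thioredoxin reductase, were lower (-0.69, adjusted p = 0.016, and -0.62, adjusted p = 0.026), and 1 was higher. Of all genes, 19.3% were called lower there and 22.7% higher. Across both lines and in KMS11 none passed the threshold, and at an unadjusted p under 0.05 there were 0 and 3, with 0 calls by DESeq2 or limma in either. MSRB1 differed between the lines as GPX4 did (difference 1.23, SE 0.27, adjusted p = 0.011). SELENOF, an ER-resident selenoprotein, had 44.4 TPM in H929 and 140.1 in KMS11 in ethanol. The other 6 had at most 1 count in any library.

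Among 11 genes of selenocysteine synthesis and insertion, H929 gave 3 higher and 2 lower, beside 22.7% and 19.3% of all genes. Those higher were SECISBP2L (0.76, adjusted p = 0.00011), a relative of the protein that binds the insertion hairpin, SARS1 (0.74, adjusted p = 0.0002), which charges the selenocysteine tRNA with serine, and PSTK (0.57, adjusted p = 0.037), which phosphorylates that serine. SCLY, which recovers selenium from selenocysteine, was lower (-1.04, adjusted p = 0.00036), as was SEPHS1 (-0.34, adjusted p = 0.033). None of the 11 was called in KMS11 or across both lines, where an unadjusted p under 0.05 gave 0 and 2, limma 0 and 0, and DESeq2 0 and 1. Their median log2 fold change was 0.13 in H929 and -0.01 in KMS11.

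Among 12 genes of tRNA isopentenyl and wobble modification, TRIT1 was the only one called across both lines. In H929, 5 were lower and none higher, beside 19.3% and 22.7% of all genes. Beside TRIT1 these included CTU2, which thiolates the wobble uridine (-1.01, adjusted p = 0.003), TRMT112, a partner of tRNA methyltransferases (-0.66, adjusted p = 0.00047), and ELP5 of the elongator complex (-0.55, adjusted p = 0.006). In KMS11 none was called by edgeR, DESeq2 or limma, and an unadjusted p under 0.05 gave 2 higher and 3 lower. The median was -0.31 in H929 and -0.02 in KMS11.

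The genes that supply DMAPP, the donor that TRIT1 uses, were called in different directions in the 2 lines. In KMS11, 7 of 8 were higher, beside 2.58% of all genes. The 7 included MVD (2.22, adjusted p = 0.0042), HMGCS1 (2.04, adjusted p = 1.3e-05) and MVK (1.47, adjusted p = 0.0077). In H929 none was higher and 3 were lower, beside 22.7% and 19.3% of all genes. ACAT2 was among the 3 (-0.66, adjusted p = 0.0012), and 2 genes were higher at an unadjusted p under 0.05. The difference between the lines, KMS11 minus H929, was called higher for 7 of the 8, beside 11.7% of all genes. TRIT1 itself had values of the same sign in both lines.

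Among 5 genes of selenium uptake, H929 gave 3 higher and 1 lower, beside 22.7% and 19.3% of all genes. SLC7A11, the cystine transporter, rose across both lines (1.55, SE 0.31, adjusted p = 0.022), by 2.33 in H929 and 0.76 in KMS11. SLC3A2 was higher in H929 (0.465, adjusted p = 0.014) and not called in KMS11 (-0.06, adjusted p = 0.82). LRP8, a receptor for selenoprotein P, fell in H929 by 1.32 (adjusted p = 2.9e-05). Of 16 thioredoxin and glutathione partners, 7 were lower and 2 higher in H929, beside 19.3% and 22.7% of all genes. Those higher were TXNIP, which binds thioredoxin (1.60, adjusted p = 1.1e-05), and PRDX5 (0.83, adjusted p = 0.0034), and PRDX4, the peroxiredoxin of the ER, was lower (-0.87, adjusted p = 0.00058). In KMS11 none of the 16 passed the threshold in edgeR or limma, with 1 by DESeq2 and 4 at an unadjusted p under 0.05.

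Of 11 ER partners of SELENOS and SELENOK, H929 gave 1 higher and 3 lower, beside 22.7% and 19.3% of all genes, and KMS11 gave no call. VCP, the segregase that SELENOS helps to recruit to the ER, fell across both lines by 0.33 (adjusted p = 0.047) and in H929 by 0.49 (adjusted p = 0.0016). Its cofactors UFD1 and NPLOC4 were lower in H929 (-0.56 and -0.40, adjusted p = 0.00074 and 0.011), and SEL1L was higher there (0.47, adjusted p = 0.0095). Of the 5 tested relatives of selenoproteins that lack selenocysteine, SEPHS1 alone was called, lower in H929, beside 19.3% of all genes.

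Over the 8 libraries, the genes most like TRIT1 in TMM-scaled log2 CPM were SMN1, NUP107 and RBBP6 (Pearson r = 0.9965, 0.9957 and 0.9957), and those most like SELENOT were RCHY1, DHX36 and NXT2 (r = 0.9973, 0.9971 and 0.9967). These libraries form 4 groups of line and treatment, and the coefficients describe shared differences between them. In all, 43 genes had r above 0.99 with TRIT1 and 52 with SELENOT. SMN1 has a near-identical copy, SMN2, and its counts are uncertain for that reason.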

How the data were processed

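Stranded total RNA libraries depleted of ribosomal RNA were sequenced from 8 samples, grouped by the labels. Per the study's methods, the authors mapped reads with STAR 2.5.2b to GRCh38 and GENCODE release 26 and quantified genes with RSEM, for which the submitters' processing notes give version 1.3.0. Each file they deposited gives unnormalized expected counts beside TPM, for which RSEM divides by effective length. The gene length and effective length columns were also deposited by the authors.

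Expected counts were rounded and tested in R 4.3.3 with edgeR 4.0.16 (TMM, filterByExpr at a count of 10 and a total of 15, quasi-likelihood test). Protein-coding genes were taken from GENCODE release 44, which holds 57392 of the 58219 identifiers, 19683 of them protein-coding. The fit across both lines had terms for line and treatment, and the other comparisons used a fit of the 4 group means, which share 1 estimate of the spread. The common dispersion was 0.0316 and 0.0125. With 2 replicates a group, p values measure the spread between these samples only. The standard error is the size of the log2 fold change divided by the square root of F. Intervals of log2 fold changes are the estimate ± 1.96 SE, with the multiplier of a normal distribution. They are narrower than 95% intervals from the F test would be. Intervals of ratios of counts are exact and cover counting error only. The fit was tested on simulated data, and the outcome is not given here.

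Alternatives were DESeq2 1.42.0, limma 3.58.1 on log2(TPM + 1), other scalings and filters, all annotated genes, no term for the line, a block of line by replicate number, offsets for per-library trends with GC content or with GC content and length (natural splines with 5 df), and leaving out each library. The labels do not say that a replicate number marks a shared culture or day. The members and gene lists were chosen with earlier results of these data known. All members were named, with up to 5 genes per list past the threshold in a comparison by size of change with mean log2 CPM no lower than 1, and the 3 genes most like TRIT1 and the member with the highest TPM. SELENOF, CD38, EPCAM, SERP1 and RPL18AP3 were chosen after their values were seen. Results that concern withheld items are not reported here.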

Additional observations from a re-analysis of the deposited data

Results flagged for a closer look

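GPX4, the lipid hydroperoxide peroxidase, is listed because its response to fluvastatin differed between the lines by a test of the difference itself. The difference, KMS11 minus H929, was 0.90 on the log2 scale (SE 0.23, adjusted p = 0.019 by edgeR's quasi-likelihood test). Both fluvastatin libraries were below both ethanol libraries in H929 and above them in KMS11. Over the settings other than leaving out a library the difference ranged from 0.06 to 0.93, with an adjusted p of 0.0017 to 0.72, and it was called in 12 of 18 alternatives in all. With the GC trend of each library removed it was 0.26 (adjusted p = 0.083). No other member met this criterion, and groups of 2 libraries are too small for a test of outlying samples.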

How the results depend on the processing

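The number of members called across both lines was 3, and fell to 1 with limma on log2(TPM + 1) (TXNRD1) and to 0 without a term for the cell line. In H929 it was 3, with SELENOM (adjusted p = 0.049) in place of TRIT1 (0.052) under limma, and 4 with GC offsets, which added SELENOK. In KMS11 it rose from 0 to 1 with DESeq2 and with no filter on low counts (GPX4), and to 2 with GC offsets or GC and length offsets (SELENOW and TXNRD1). For the difference between the lines it rose from 1 to 2 with limma (GPX1 and GPX4) and with GC offsets (TXNRD1 and TRIT1), and to 3 with GC and length offsets, which added SELENOW. GPX1 had no measurable response in KMS11, so its limma call reflects H929 alone and is no test of a difference. Between the lines in ethanol it was 7. Leaving out 1 library gave 1 to 3 members across both lines, 1 to 5 in H929, 0 to 4 in KMS11, 0 to 1 for the difference and 6 to 7 between the lines in ethanol. The 4 in KMS11 (GPX4, SELENOK, TXNRD1 and TRIT1) came without KMS11 fluvastatin replicate 2, and the 5 in H929 without either KMS11 fluvastatin library, which added GPX4 and SELENOM. The single H929 member without H929 ethanol replicate 2 was GPX1. The cause was not tested.

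A block for line and replicate number gave 1 member across both lines (GPX1), 4 in H929 (adding SELENOM, adjusted p = 0.027), 2 in KMS11 (GPX4 and TXNRD1) and 1 for the difference. Deviations of samples with the same number correlated at 0.774 in H929 and -0.078 in KMS11 over 5561 genes. The labels tie a number to no shared culture or day, and a block is therefore given as an alternative only. Over all genes, the block moved the calls across both lines to 143 higher and 15 lower, and in KMS11 to 1161 and 476.

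A change of sign was counted as a reversal where the value was called on either side. Of 900 values of single members under alternatives, 833 kept their sign or stayed uncalled, 30 gained and 35 lost a call, and 2 reversed. Both were between the lines in ethanol, SELENOH with limma (0.43, adjusted p = 0.0085) and SELENOS with GC and length offsets (-0.21, adjusted p = 0.02). The balance of calls over all genes moved with scaling. Across both lines 854 higher and 516 lower became 323 and 775 with limma on TPM and 1560 and 1666 with GC offsets, and in KMS11 339 and 70 became 127 and 96, and 931 and 784. With 1 to 20 counts per KMS11 library, depth limits what can be said of GPX1 and SELENOM there.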
